A study of Mus musculus with 96 samples.

Results

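The mir-128 family of the mouse consists of 2 stem-loop precursors, mir-128-1 (miRBase ID MI0000155) and mir-128-2 (MI0000726), and their levels were followed here in the cerebellum of Huntingtin (Htt) knock-in mice. The members were defined by their IDs, with earlier results of these data known, and they are 2 of the 1187 stem-loops in the deposited tables. All mice were C57BL/6 animals. The knock-in mice were heterozygous, with 1 wild type Htt allele and 1 allele that holds exon 1 of human HTT with 20 (Q20, Htt tm2Mem), 50 (Q50, Htt tm3Mem), 92 (Q92, Htt tm4Mem) or 140 (Q140, Htt tm1Mfc) CAG repeats. Wild type (WT) littermates came from the Q20 line (WT-Q20) and from the Q50 line (WT-Q50). No WT littermates of the Q92 and Q140 lines were analysed here, so repeat length and line cannot be told apart for those alleles. Each of the 6 genotypes was sampled at 6 and at 10 months of age in 4 females and 4 males, which gives 96 libraries in 24 groups, and the study describes each library as a separate animal. The controls were the Q20, WT-Q20 and WT-Q50 libraries together, as in the study.

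miR-128 is among the microRNAs that are rich in brain, and it is found mainly in neurons, where its level rises as they mature. A microRNA guides an Argonaute protein to messenger RNAs that pair with its seed, the bases 2 to 8 from its 5′ end, and so lowers their translation and stability. In mice, miR-128 is known to dampen the excitability of neurons, and loss of the mir-128-2 locus causes overactivity and fatal seizures.

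The 2 loci are shown by sequence because their reads can only partly be told apart. In mouse build GRCm38 (mm10), Mir128-1 lies at chr1:128202361-128202430 on the plus strand, within an intron of R3hdm1, a gene for a protein with an R3H RNA-binding domain. Mir128-2 lies at chr9:112118636-112118711 on the minus strand, within an intron of Arpp21, which encodes a cAMP-regulated phosphoprotein of neurons. Each stem-loop runs on the same strand as its host gene in the GENCODE M21 annotation. The mature sequences below, from RefSeq on GRCm38.p6, carry their seed in capitals.
miR-128-3p: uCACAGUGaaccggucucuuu
miR-128-1-5p: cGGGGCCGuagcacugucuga
miR-128-2-5p: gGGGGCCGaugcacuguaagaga
The 3p microRNA is identical at both loci. Among 1679 mature sequences of the mouse, 1 name, miR-128-3p itself, has the seed CACAGUG. The 5p microRNAs share their seed with each other and differ after it. In the RefSeq stem-loops, 70 and 76 bases long, the 3p microRNA is in capitals.
Mir128-1 hairpin: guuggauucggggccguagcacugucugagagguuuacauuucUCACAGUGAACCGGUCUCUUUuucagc
Mir128-2 hairpin: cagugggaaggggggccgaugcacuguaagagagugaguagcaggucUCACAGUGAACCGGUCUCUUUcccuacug
The longest stretch that both hairpins share is 23 bases long and ends with the 3p microRNA. Of 1005 mouse hairpins searched, 2 contain the 3p sequence, and these are the 2 loci. A read of miR-128-3p alone therefore has 2 possible origins, and the deposited tables hold 1 value per stem-loop, not per arm.

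The files show how such reads were handled. The estimated count of mir-128-1 and that of mir-128-2 were not whole numbers in any of the 96 libraries, whereas their sum was whole in 96 of 96 (within a tolerance of 0.003 counts). Reads were thus divided between these loci and shared with no further stem-loop, so the sum is a count of reads, and the level of each locus rests on how reads were divided. The part of each level that came from divided reads was not measured. Lengths recovered from the ratio of count to FPKM (counts per length and library total) were 70.0 and 76.0 bases, the lengths of the RefSeq hairpins.

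Library totals ran from 5435778 to 7934044 estimated counts. Counts of mir-128-1 ran from 40635 to 67031 and those of mir-128-2 from 16125 to 32778 per library, so counting error was small beside the spread between animals. At 6 months, 2 libraries (Q20 female replicate 2 and Q92 male replicate 4) stood apart from the others in connectivity (Z.k of -6.70 and -6.32) and were left out, which left 46 libraries at 6 months and 48 at 10 months. Their summed mir-128 levels of 11041 and 11023 CPM (counts scaled to a common library total) lay within the range of the rest. Cell type markers could not be examined, because no table used here pairs the other stem-loop IDs with names. In whole tissue, fewer cells of a type and less RNA per cell cannot be told apart.

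Both loci were abundant in cerebellum. The sum took 1.02 to 1.43% of all counts in a library, with a median of 11735 CPM. By FPKM, which scales for length, mir-128-1 ranked between 18th and 27th and mir-128-2 between 39th and 50th among all stem-loops. The FPKM of mir-128-1 was 2.09 to 3.11 times that of mir-128-2, with a median of 2.47. The levels of the loci varied together, with a Spearman correlation of 0.60 (Pearson 0.69) across 94 libraries after the means of age, sex and L tag (a number in the library name) were removed. Both values come from the same libraries and partly from the same divided reads. The residual SD on the log2 scale was 0.11 for mir-128-1, 0.12 for mir-128-2 and 0.10 for the sum, against a median of 0.14 over 172 stem-loops of at least 100 CPM.

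Levels from here on are CPM after trimmed mean (TMM) scaling, which corrects each library total for shifts in its composition, and are called normalised CPM. At 6 months, the summed level was highest in Q140 at 12629 ± 1040 (SD, n = 8). It was followed by Q20 at 11895 ± 464 (n = 7), Q92 at 11691 ± 848 (n = 7), Q50 at 11636 ± 568 (n = 8), WT-Q50 at 11432 ± 691 (n = 8) and WT-Q20 at 11197 ± 808 (n = 8). No group differed from its neighbour in this order by more than the larger of their SDs. At 10 months, 5 of the 6 genotypes lay close together, with Q92 at 12270 ± 798, WT-Q50 at 12192 ± 1085, WT-Q20 at 12169 ± 896, Q140 at 12085 ± 945 and Q20 at 11738 ± 659 (n = 8 each). Q50 came last at 10666 ± 724 (n = 8), below Q20 by 1072, which is more than either SD.

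**Figure D1:**
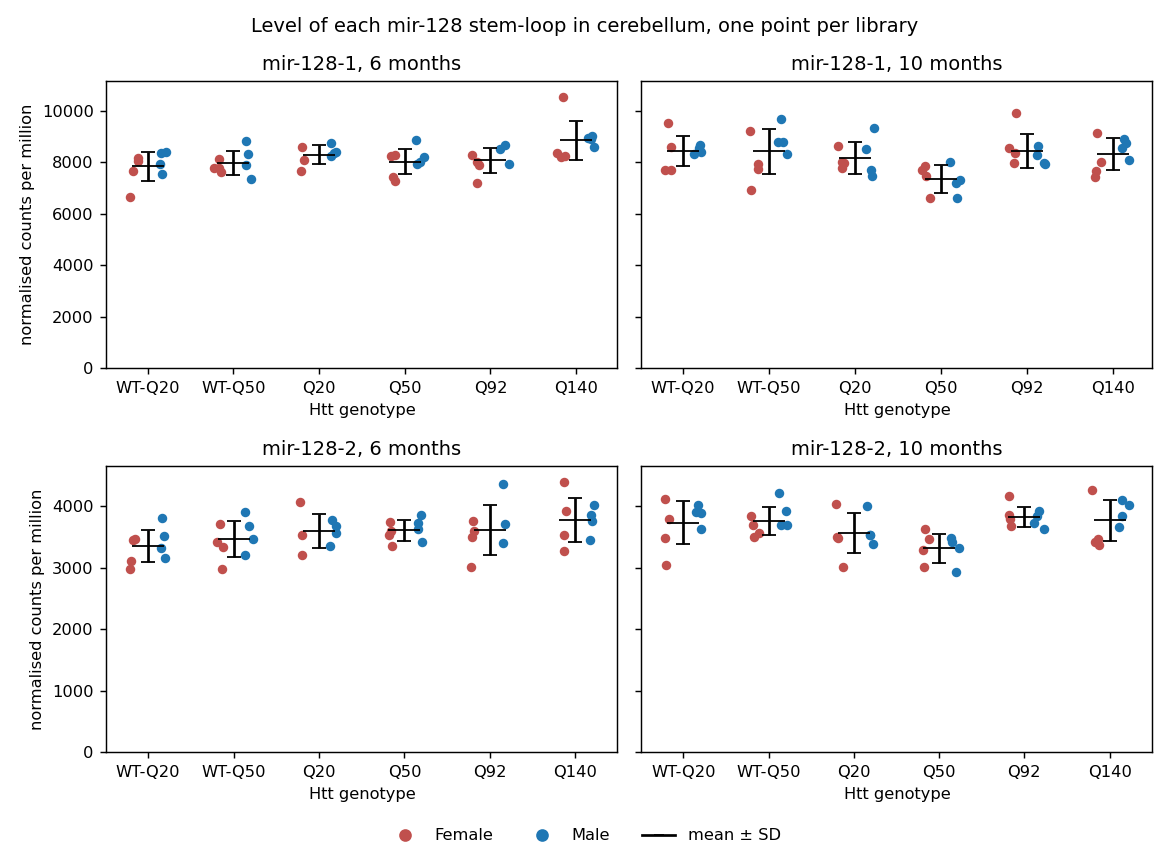
Normalised CPM of mir-128-1 (top) and mir-128-2 (bottom) by Htt genotype at 6 months (left) and 10 months (right). Points are libraries, coloured by sex, and bars are the mean ± SD. At 10 months the Q50 libraries lie between 6606 and 8006 for mir-128-1 and between 2934 and 3629 for mir-128-2, the lowest group mean in both panels.

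Q50 at 10 months was the group in which both mir-128 loci were lower than in controls. mir-128-1 was at 7351 ± 528 normalised CPM in Q50 (SD, n = 8) and at 8346 ± 687 in controls (n = 24). mir-128-2 was at 3315 ± 238 in Q50 and at 3687 ± 305 in controls. In the 4 Q50 females the summed level was 11341, 10770, 9613 and 11333 normalised CPM, and in the 4 males it was 10674, 11320, 9563 and 10712. The 24 controls ran from 10433 through a median of 12013 to 13896. All 8 Q50 libraries lay under the control mean for each locus and for the sum, and 2 of 8 lay under the lowest control, female replicate 3 and male replicate 3. The other 6 overlapped the lower part of the control range.

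By edgeR's quasi-likelihood test across 434 stem-loops, mir-128-1 fell by 0.18 on the log2 scale in Q50 at 10 months (SE 0.05, adjusted p = 0.0265), which is a decrease of 11.9% by the fit. mir-128-2 fell by 0.16 (SE 0.04, adjusted p = 0.0335). The sum fell by 0.18 (SE 0.04, adjusted p = 0.0224), with a 95% interval from -0.26 to -0.09. In this comparison 16 of 434 stem-loops passed the threshold (3.69%), of which 5 were lower (1.15%), and both mir-128 loci were among those 5. Since the 2 loci share divided reads, the 2 calls cannot be taken as independent of each other.

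**Figure D2:**
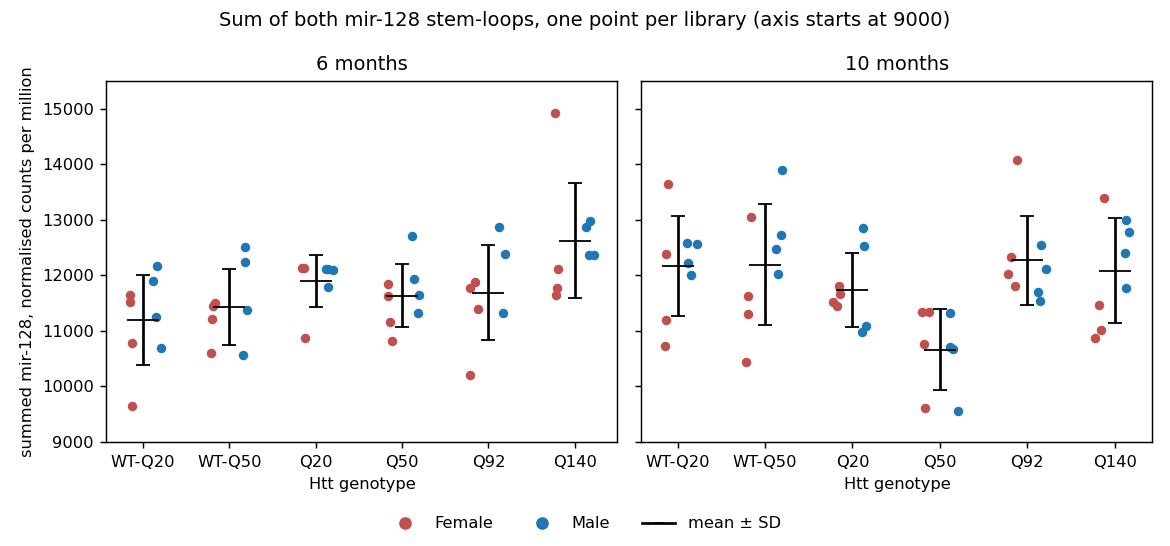
Summed normalised CPM of both mir-128 stem-loops by Htt genotype at 6 and 10 months, 1 point per library, with the mean ± SD and an axis that starts at 9000. Q140 has the highest mean at 6 months (12629) and Q50 the lowest at 10 months (10666).

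The size of this difference depended on how libraries were scaled. The mean TMM factor was 1.04 ± 0.05 (SD) in the Q50 libraries at 10 months and 0.997 ± 0.042 in controls, so scaling lowered the Q50 levels further. Without it, the summed level was 11130 ± 716 CPM in Q50 and 11987 ± 834 CPM in controls, and 7 of 8 Q50 libraries lay under the control mean. Unscaled, 1 of 8 lay under the lowest control for mir-128-1 and for the sum, and 0 of 8 for mir-128-2. With the library total alone as the scale, edgeR gave -0.11 for the sum (SE 0.04, adjusted p = 0.110), and limma on log2(FPKM + 1), which has the same scale, gave -0.11 (adjusted p = 0.130). The direction held and the call was lost. With DESeq2, which uses size factors, the sum was at -0.19 (adjusted p = 0.0105).

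The call also depended on single libraries. Without Q50 female replicate 3 the adjusted p by edgeR of the sum was 0.241 (log2 fold change -0.15), without male replicate 3 it was 0.109 (-0.15) and without male replicate 4 it was 0.0635 (-0.18). The call of the sum held in the other 45 of 48 fits that left out 1 library. All 3 losses thus came on leaving out 1 of the 8 Q50 libraries, and most of the 48 fits left out a library of another genotype. Female replicate 3 and male replicate 4 also had low connectivity (Z.k of -4.30 and -3.36), above the limit used. When the libraries of all genotypes with a Z.k under -3 were left out, an alternative chosen after the data were seen, the sum was at -0.15 (unadjusted p = 0.00289, adjusted p = 0.671 by edgeR) and no stem-loop passed the threshold.

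Within the Q50 line, both loci were also lower than in WT littermates at 10 months, but without passing the threshold. mir-128-2 ran from 2934 to 3629 normalised CPM in the 8 Q50 libraries and from 3497 to 4210 in the 8 WT-Q50 libraries, and 7 of the 8 Q50 values were under the lowest WT-Q50 value. For mir-128-1, the ranges were 6606 to 8006 in Q50 and 6937 to 9686 in WT-Q50, and 2 of 8 Q50 values were under the lowest WT-Q50 value. The log2 fold changes were -0.20 for mir-128-1 (SE 0.06, edgeR adjusted p = 0.183) and -0.21 for mir-128-2 (SE 0.05, edgeR adjusted p = 0.124). mir-128-2 had the smallest unadjusted p of all 434 stem-loops in this comparison, 0.000287 by edgeR, and mir-128-1 the fourth smallest. No stem-loop of 434 passed the threshold there (0%) by edgeR, DESeq2 or limma, while 44 had an unadjusted p under 0.05 by edgeR. WT-Q50 female replicate 1 was the lowest of the littermates for both loci, at 6937 and 3497. Without it, the sum differed by -0.23 (edgeR adjusted p = 0.0497), and this was the 1 fit of 48 without 1 library in which the sum passed. Leaving out Q50 female replicate 3 gave -0.17 for the sum (edgeR adjusted p = 0.555). Leaving out Q50 male replicate 3 gave -0.18 (edgeR adjusted p = 0.376), and leaving out male replicate 4 gave -0.20 (edgeR adjusted p = 0.206).

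At 6 months, the Q50 difference was not seen. The summed level ran from 10821 through a median of 11640 to 12709 normalised CPM in 8 Q50 libraries, and from 9644 through 11524 to 12520 in 23 controls, so the Q50 values lay almost wholly inside the control range. The log2 fold change of the sum was 0.013, with a 95% interval from -0.06 to 0.09 (edgeR adjusted p = 0.999). No stem-loop passed the threshold for Q50 at 6 months by edgeR, DESeq2 or limma (0% of 434), and 13 had an unadjusted p under 0.05 by edgeR. The difference between the ages was tested itself. The Q50 effect on the sum was lower at 10 than at 6 months by 0.18 on the log2 scale (value -0.18, SE 0.06, 95% interval -0.30 to -0.07). Its unadjusted p by edgeR was 0.00243 and its adjusted p 0.125, so a difference between ages did not pass the threshold. Over both ages together, the sum was at -0.08 in Q50 (edgeR adjusted p = 0.522).

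The Q50 difference at 10 months had the same direction in both sexes and in both L tags. Library names hold an L followed by a number, here called the L tag, whose meaning the labels leave unstated, and it stood in for the batch covariate of the study. The summed level was 10764 ± 813 normalised CPM in Q50 females (SD, n = 4) against 11736 ± 913 in control females (n = 12). It was 10567 ± 732 in Q50 males (n = 4) against 12330 ± 777 in control males (n = 12). The Q50 effect differed between females and males by 0.09 on the log2 scale (SE 0.09, edgeR adjusted p = 0.942). Within L tag 1, the sum differed by -0.16 (SE 0.07, 4 Q50 and 14 control libraries), and within L tag 8 by -0.20 (SE 0.05, 4 and 10 libraries).

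**Figure D3:**
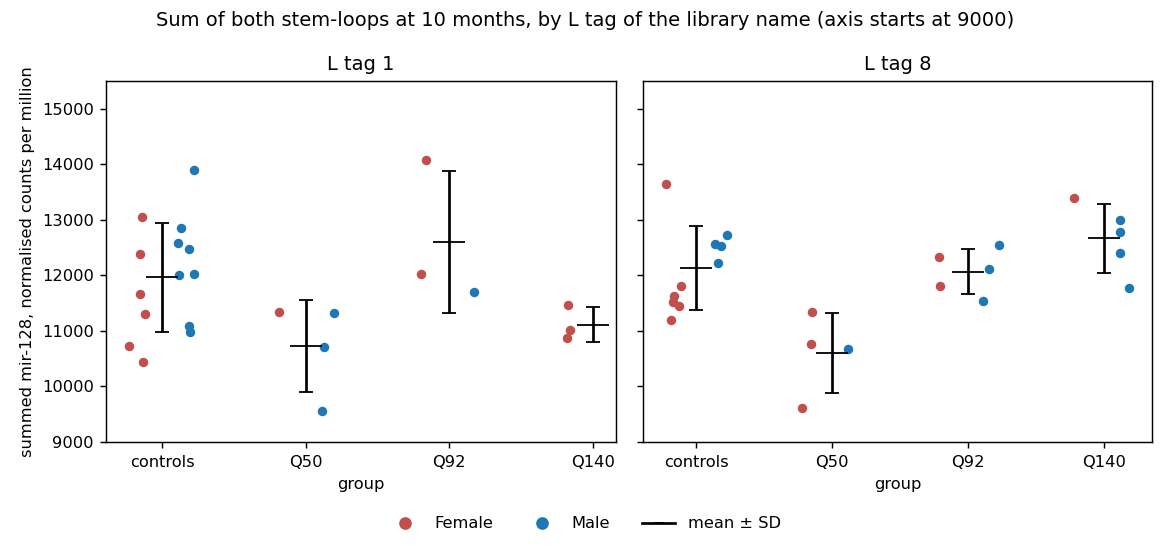
Summed normalised CPM of both mir-128 stem-loops at 10 months, in libraries of L tag 1 (left) and L tag 8 (right), 1 point per library, with the mean ± SD and an axis that starts at 9000. Q50 means are 10732 in tag 1 and 10600 in tag 8, against control means of 11963 and 12131, while Q140 lies under the controls in tag 1 (11114) and over them in tag 8 (12667).

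Q140 mice had the highest levels at 6 months. mir-128-1 was at 8851 ± 750 normalised CPM in Q140 (SD, n = 8) and at 8026 ± 492 in controls (n = 23), with all 8 Q140 libraries over the control mean and 4 of 8 over the highest control. mir-128-2 was at 3777 ± 356 against 3466 ± 285, with 6 of 8 over the control mean. In the 4 Q140 females the sum was 12124, 11645, 14926 and 11766 normalised CPM, and in the 4 males 12865, 12979, 12362 and 12361. Female replicate 3, at 14926, was the highest library of the age. It and male replicates 1 and 2 lay over the highest control, and the other 5 lay inside the control range of 9644 to 12520. These positions depended on scaling, as the mean TMM factor was 0.978 in Q140 and 1.009 in controls. In unscaled CPM, mir-128-1 was over the highest control (8941) only in female replicate 3 (10112) and male replicate 1 (9128). Female replicates 1 and 4, at 7967 and 7956, then lay under the mean of each control group (7995 to 8213).

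The difference of Q140 at 6 months lay just outside the threshold. The log2 fold change was 0.13 for mir-128-1 (SE 0.04, edgeR adjusted p = 0.0513), 0.11 for mir-128-2 (SE 0.05, edgeR adjusted p = 0.210) and 0.13 for the sum (SE 0.04, edgeR adjusted p = 0.0550). In this comparison 10 of 434 stem-loops passed (2.3%), 2 of them higher (0.461%), and neither mir-128 locus was among them. Without Q140 female replicate 3 the sum was at 0.10 (edgeR adjusted p = 0.155). Of the 46 fits that left out 1 library, 12 brought mir-128-1 and 2 brought the sum past the threshold, with edgeR adjusted p values from 0.0417 to 0.136 and from 0.0445 to 0.166. mir-128-1 passed with DESeq2 (adjusted p = 0.0391). With the L tag left out of the model, edgeR gave adjusted p values of 0.0250 for mir-128-1 and 0.0249 for the sum. Over all 13 other settings, mir-128-1 ran from 0.092 to 0.143 and the sum from 0.085 to 0.138. Their adjusted p values, by the tool of each setting, reached 0.240 and 0.299. Within L tag 2 the sum differed by 0.17 (SE 0.09, 3 Q140 and 3 control libraries). Within tag 3 it differed by 0.10 (SE 0.05, 4 and 12 libraries), and within tag 4, which held 1 Q140 library, by 0.011.

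With CAG length as a number, the sum at 6 months was higher by 0.09 on the log2 scale per 100 CAG (SE 0.03, edgeR adjusted p = 0.0436). The loci themselves, at 0.09 (adjusted p = 0.0664) and 0.10 (adjusted p = 0.159) by edgeR, did not pass, and 12 of 434 stem-loops did (2.76%). Without Q140 female replicate 3 the sum was at 0.07 (edgeR adjusted p = 0.177), and it passed in 15 of 46 fits that left out 1 library. The group means of mir-128-1 and of the sum did not climb in steps with CAG length at 6 months, since Q20 lay over Q50 and Q92. Those of mir-128-2 ran in the order of CAG length, at 3594 in Q20, 3606 in Q50, 3618 in Q92 and 3777 in Q140, with steps smaller than the SDs.

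At 10 months, neither Q140 nor CAG length was matched by a difference in mir-128. The sum in Q140 ran from 10864 through a median of 12082 to 13387 normalised CPM, inside the control range of 10433 to 13896. The log2 fold change of the sum was -0.00016, with a 95% interval from -0.09 to 0.09 (edgeR adjusted p = 0.9995). In this comparison 10 of 434 stem-loops passed (2.3%). Per 100 CAG, the sum changed by 0.0059, with an interval from -0.07 to 0.08 (edgeR adjusted p = 0.989), and 2 of 434 stem-loops passed (0.461%). Within L tags, the Q140 value of the sum was -0.10 in tag 1 (SE 0.09, 3 Q140 and 14 control libraries) and 0.06 in tag 8 (SE 0.05, 5 and 10 libraries). All 3 Q140 libraries of tag 1 were female, and their sums of 11465, 10864 and 11011 were the lowest of the 8. The Q140 effect on the sum differed between 10 and 6 months by -0.12 (SE 0.06, edgeR adjusted p = 0.606). Over both ages it was 0.06 (edgeR adjusted p = 0.168), where 22 of 434 stem-loops passed (5.07%).

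The summed level of Q92 mice differed little from that of controls at either age. The sum was at 11691 ± 848 normalised CPM at 6 months (n = 7) and at 12270 ± 798 at 10 months (n = 8). The log2 fold changes of the sum were 0.05 (95% interval -0.03 to 0.13, edgeR adjusted p = 0.970) and 0.02 (-0.06 to 0.11, edgeR adjusted p = 0.884). No stem-loop passed for Q92 at 6 or at 10 months by edgeR, DESeq2 or limma (0% of 434), and 22 and 47 had an unadjusted p under 0.05 by edgeR.

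**Figure D4:**
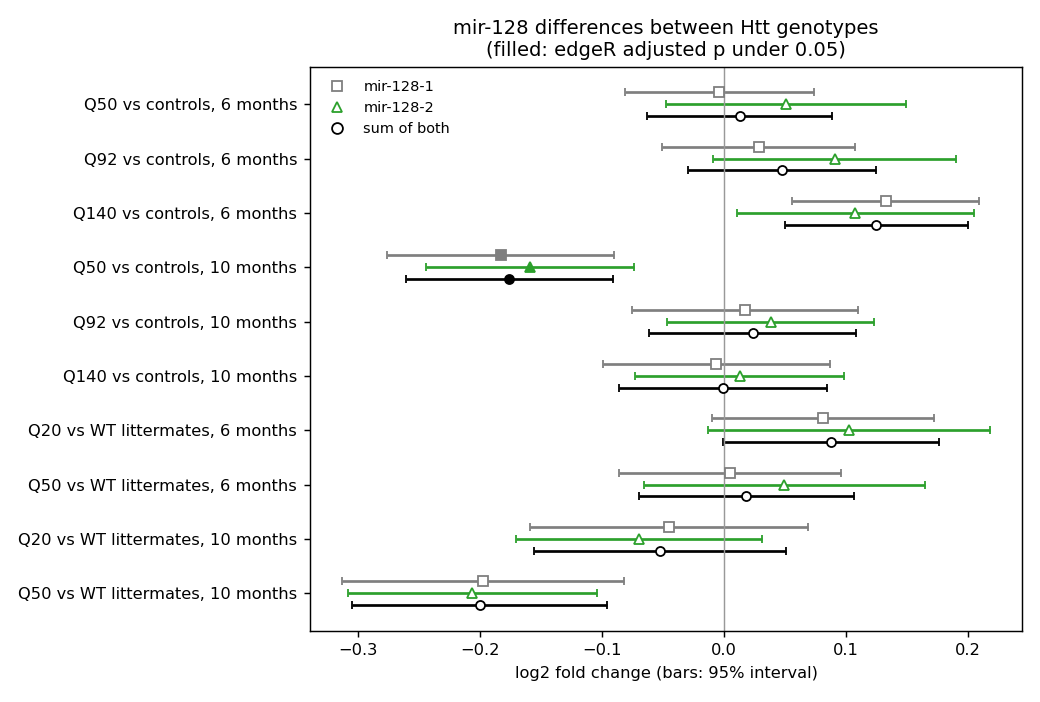
Log2 fold change, with 95% interval, of mir-128-1, mir-128-2 and their sum in each comparison of Htt genotypes. Filled symbols mark an edgeR adjusted p under 0.05, which holds for Q50 against controls at 10 months (-0.18, -0.16 and -0.18) and for no other comparison drawn.

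The Q20 allele, whose repeat is near the human average, served as a control and was also compared with its own WT littermates. At 6 months the sum was 11895 ± 464 normalised CPM in Q20 (n = 7) and 11197 ± 808 in WT-Q20 (n = 8), a log2 fold change of 0.09 (95% interval -0.00049 to 0.18, edgeR adjusted p = 0.537). At 10 months it was 11738 ± 659 in Q20 and 12169 ± 896 in WT-Q20, a log2 fold change of -0.05 (-0.16 to 0.05, edgeR adjusted p = 0.973). By edgeR and limma no stem-loop passed for Q20 at either age (0% of 434), with 43 at 6 months and 24 at 10 months at an unadjusted p under 0.05 by edgeR. DESeq2 called 2 at 6 months and 0 at 10 months. Controls with WT alone, without Q20, left the sum in Q50 at 10 months at -0.20 (edgeR adjusted p = 0.0287).

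Age and sex moved mir-128 little. From 6 to 10 months, mir-128-1 changed by 0.0065 on the log2 scale (95% interval -0.04 to 0.05, edgeR adjusted p = 0.850) and mir-128-2 by 0.04 (-0.0082 to 0.09, edgeR adjusted p = 0.210), although 150 of 434 stem-loops passed in that comparison (34.6%). Since no L tag occurs at both ages, the effect of age and that of the tag cannot be told apart. The sum in females relative to males was -0.04 at 6 months (SE 0.03, edgeR adjusted p = 0.536), where 11 stem-loops passed (2.53%). It was -0.04 at 10 months (SE 0.03, edgeR adjusted p = 0.524), where 33 passed (7.6%).

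The division of the count between the loci varied between libraries, and no genotype comparison of it passed the threshold. mir-128-1 held 65.8 to 74.1% of the summed count over all 96 libraries, with a median of 69.5%. At 10 months the mean share was 68.9 ± 1.1% in Q50 (SD, n = 8), 68.8 ± 0.9% in Q92, 68.8 ± 0.5% in Q140 and 69.3 ± 1.8% in controls (n = 24). At 6 months it was 69.0 ± 1.5% in Q50 (n = 8), 69.1 ± 1.5% in Q92 (n = 7), 70.1 ± 1.4% in Q140 (n = 8) and 69.9 ± 1.3% in controls (n = 23). The widest difference was that of Q50 at 6 months, -0.88 percentage points, with 7 of 8 Q50 libraries under the control mean. Its p was 0.135 by a two-sided exact permutation test and 0.846 after Benjamini-Hochberg adjustment over the 10 comparisons made, and the other 9 were larger before adjustment. For Q50 at 10 months, where both loci fell, the share differed by -0.42 percentage points (exact permutation p = 0.545). The share was 69.7 ± 1.6% in the 24 libraries of L tag 1 and 68.5 ± 0.9% in the 24 of L tag 8. The permutation tests held no term for sex or L tag, so their p-values do not account for such a difference between tags.

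**Figure D5:**
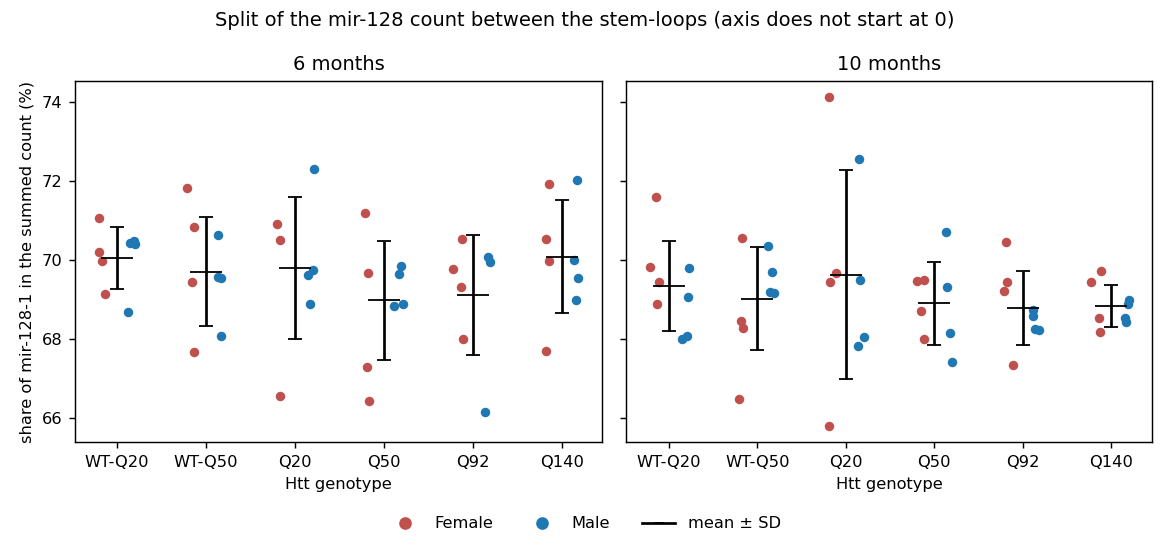
Share of mir-128-1 in the summed count of both stem-loops, in percent, by Htt genotype at 6 and 10 months, 1 point per library, with the mean ± SD. All libraries lie between 65.8 and 74.1%, and Q20 at 10 months has the widest range.

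Other stem-loops were ranked by how closely they followed the mir-128 sum over the 94 libraries, after the means of age, L tag and sex were removed. Among 172 stem-loops of at least 100 CPM, MI0000706 was closest (Spearman rho 0.60, mean 147565 CPM), followed by MI0004611 (0.57, mean 229 CPM). At the other end stood MI0000221 (-0.47, mean 1548 CPM) and MI0000607 (-0.44, mean 531 CPM). These values are descriptions, and all stem-loops of a library share its scaling.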

How the data were processed

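Small RNA libraries from 96 cerebella were sequenced as strand-specific single-end reads, and the study's methods name clipping, alignment to mm10 with STAR and counting with HTSeq. The submitters' processing notes name CASAVA 1.8.2. The authors deposited estimated counts per miRBase stem-loop, which were not normalized, and FPKM values, which equal those counts scaled by stem-loop length and library total. The program that divided reads between stem-loops is not named in the labels or methods. After rounding, these counts went into quasi-likelihood fits (edgeR 4.0.16, R 4.3.3) with trimmed mean (TMM) normalization. The filter asked for 10 counts or more in 8 libraries or more of each age and left 434 stem-loops, over which p-values were adjusted by Benjamini-Hochberg (threshold 0.05). Genotype, sex and the L tag of the library name were the terms. Each age was fitted separately, and the signed z values of the ages were summed for a combined test. Following the study, libraries with a connectivity Z.k under -5 were left out, while its replacement of single outlying counts was not applied. The sum of both loci was tested in a copy of the table in which it took the place of both, with the scaling of the original table. The share of each locus was compared by exact permutation tests within each age, with no term for sex or L tag. DESeq2 1.42.0, limma 3.58.1 on log2(FPKM + 1) and other settings were run as alternatives. The edgeR fit of Q50 against controls at 10 months was tried on simulated counts, with planted differences larger than those found for mir-128. The other fits were not tried in this way. Named IDs were the 2 loci and, by Spearman correlation with their sum, at most 2 at each end. The lists of other neuronal microRNAs and of cell type markers were written by name, no table used here pairs the IDs with names, and these lists were not run. The 2 members and the lists were chosen with earlier results of these data known.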

Additional observations from a re-analysis of the deposited data

Results flagged for a closer look

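Of 88 sets of 4 libraries examined (22 groups of genotype, age and sex, each for mir-128-1, mir-128-2, the sum and the share of mir-128-1), 5 held a library whose gap to the nearest of the others took more of the range than Dixon's 95% limit allows, and chance alone gives about 1 in 20. Q140 female replicate 3 at 6 months was high for mir-128-1 at 10530 normalised CPM, with the other 3 between 8209 and 8375, and for the sum at 14926, with the others between 11645 and 12124. Q140 female replicate 3 at 10 months was high for mir-128-2 at 4258 normalised CPM, with the others between 3364 and 3472, and it was the single L tag 8 library among these 4 females. Q20 male replicate 1 at 6 months was low for the sum at 11795, with the others between 12091 and 12121. WT-Q20 male replicate 4 at 6 months had a low share of mir-128-1 at 68.7%, with the others between 70.4 and 70.5%.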

How the results depend on the processing

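Of 82 results, 4 passed the threshold (mir-128-1, mir-128-2 and the sum in Q50 against controls at 10 months, and the sum with CAG length at 6 months). Log2 fold changes are given below, and p values are adjusted over all stem-loops tested by the tool named. In 914 repeats under other settings, 845 kept their direction and side of the threshold, 27 lost a call, 4 gained one and 38 changed direction. All those that changed direction lay within 0.032 of 0 on the log2 scale. For Q50 at 10 months, the lower direction of both loci and the sum held under every setting run. The calls were kept with DESeq2, RLE size factors, WT controls alone, no L tag, a filter on a mean count of 50 and no count filter. No library had been left out at 10 months, so the setting with all libraries repeated the main fit there. They were lost with the library total alone (-0.11, -0.089 and -0.11 for mir-128-1, mir-128-2 and the sum), with limma on log2(FPKM + 1) and log2(FPKM + 0.1) (-0.11, -0.090 and -0.11 in each), and without libraries of Z.k under -3, chosen after the data were seen (-0.16, -0.14 and -0.15). With only the groups compared in the fit, which leaves fewer samples, the loci at -0.18 and -0.16 lost the call (edgeR adjusted p = 0.0713 and 0.1004) and the sum kept it (0.0421). Why scaling mattered was not tested. The number of calls over all stem-loops in this comparison was 16, against 17 with the library total, 3 with only the groups compared, 6 with WT controls alone, 11 with no count filter, 0 with limma and 0 without libraries of Z.k under -3. Over all stem-loops, Q140 at 6 months had 10 calls, against 0 with the replicate block and up to 27 with only the groups compared (DESeq2 24). Q140 at 10 months had 10 (lowest 1, without libraries of Z.k under -3), Q140 over both ages 22 (10 with WT controls alone, 33 with DESeq2) and CAG length 12 at 6 months (lowest 1, with WT controls alone) and 2 at 10 months (1 to 4). Sex had 11 calls at 6 months (lowest 5, with no L tag) and 33 at 10 months (lowest 14, with no count filter).

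Same-numbered libraries of a sex had a mean correlation of -0.018 at 6 and 0.072 at 10 months. For libraries with other numbers it was 0.0064 and -0.024. Of the same-numbered pairs, 32 of 110 and 59 of 120 were over 0.1. These values do not settle whether replicate numbers pair the animals, and a block for them was run as an alternative. With the replicate block, mir-128-1 and mir-128-2 in Q50 at 10 months were at -0.18 and -0.16 (edgeR adjusted p = 0.0505 and 0.0509), the sum at -0.18 (0.0423), with 0 stem-loops called in the table of single loci. With the block the sum with CAG length at 6 months was at 0.095 (0.0665), mir-128-1 with CAG length at 10 months was at -0.00092, and no other call or direction for the loci and their sum changed.

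The sum with CAG length at 6 months kept its call with no L tag and lost it with DESeq2 and RLE (0.091 each), WT controls alone (0.097), all libraries (0.086), Z.k under -3 left out (0.070), the library total (0.062), limma with either pseudocount (0.061 each), a mean count of 50 (0.084) and no count filter (0.077). Calls were gained for Q140 at 6 months with DESeq2 (mir-128-1 at 0.13) and with no L tag (mir-128-1 and the sum at 0.14 each), and with no L tag for mir-128-1 with CAG length at 6 months (0.097).

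Direction changed for mir-128-1 with CAG length at 10 months with DESeq2 and RLE (-0.00088 each), WT alone (-0.00055), the library total (-0.0071), limma (-0.0064 for each pseudocount), a mean count of 50 (-0.00081) and no filter (-0.013), and for the sum there with the library total (-0.0026), limma (-0.0027 for each pseudocount) and no filter (-0.0091). In Q50 at 6 months it changed for mir-128-1 with WT alone (0.023), all libraries (0.0033), no L tag (0.0020) and no filter (0.0016), and for the sum with the library total (-0.0037) and limma (-0.0040 for each pseudocount). In Q50 against littermates at 6 months it changed for mir-128-1 with the library total (-0.010), limma (-0.010 for each pseudocount), a mean count of 50 (-0.0032) and only the groups compared (-0.015, the sum -0.00065). In Q140 at 10 months it changed for mir-128-2 with WT alone (-0.013) and no filter (-0.0053), for the sum with no L tag (0.0060) and only the groups compared (0.0020), and for mir-128-1 and the sum without libraries of Z.k under -3 (0.025 and 0.031). In Q92 it changed at 10 months for mir-128-1 and the sum with the library total (-0.0070 and -0.000088) and for mir-128-1 with limma (-0.0059 for each pseudocount), and in the difference between ages for mir-128-1 and the sum with all libraries (0.013 and 0.0047).

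Leaving out each library in turn gave ranges of -0.20 to -0.16, -0.18 to -0.13 and -0.19 to -0.15 for mir-128-1, mir-128-2 and the sum in Q50 at 10 months, with 3 of 48 fits losing each call. These losses all came on leaving out a Q50 library. The ranges in Q50 against littermates at 10 months were -0.23 to -0.17, -0.23 to -0.18 and -0.23 to -0.17. At 6 months they were 0.10 to 0.15 for mir-128-1 and 0.095 to 0.15 for the sum in Q140, which gained a call in 12 and 2 of 46 fits, and 0.068 to 0.096 for mir-128-1 and 0.070 to 0.10 for the sum with CAG length, which lost its call in 31 of 46 fits. Results near 0 ranged as follows. With CAG length at 10 months, mir-128-1 ran from -0.015 to 0.016 and the sum from -0.0097 to 0.018. In Q140 at 10 months, mir-128-1 ran from -0.028 to 0.017, mir-128-2 from -0.013 to 0.027 and the sum from -0.024 to 0.019. In Q50 at 6 months, mir-128-1 ran from -0.022 to 0.013 and the sum from -0.0029 to 0.028, and against littermates mir-128-1 ran from -0.013 to 0.027. In Q92 at 10 months, mir-128-1 ran from -0.027 to 0.032 and the sum from -0.017 to 0.040, and between the ages mir-128-1, mir-128-2 and the sum ran from -0.043 to 0.018, from -0.098 to 0.012 and from -0.060 to 0.010. For 10 against 6 months, mir-128-1 ran from -0.00018 to 0.020. The share of mir-128-1 differed by -0.040 to 0.58 percentage points in Q140 at 6 months, by -0.67 to 0.29 and -0.35 to 0.84 in Q20 against littermates at 6 and 10 months, and by -0.48 to 0.10 in Q50 against littermates at 10 months.

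Depth did not limit these values, but the division of reads between the loci rests on the deposited estimates, and the sum does not.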
